A study of Mus musculus with 6 samples.

Results

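Liver sinusoidal endothelial cells line the hepatic sinusoids. The genes examined here are 10 markers of this cell type, namely Stab1, Stab2, Lyve1, Clec4g, Fcgr2b, Gpr182, Kdr, Oit3, Dnase1l3 and Wnt2, out of 27381 genes measured on the arrays. They were chosen by symbol as known genes of sinusoidal endothelium, and each is represented by 1 row of the deposited table. The mice were male wild-type C57BL/6J fed a diet rich in palm-oil fat, fructose and cholesterol (NASH diet) from 10 weeks of age for 32 weeks, and all groups carried a viral vector. AAV-Hep-Glrx mice (AAV-Glrx in the labels) had received, at week 20 of the diet, 1e12 vector genomes of an adeno-associated virus in which the hepatocyte-specific promoter of Serpina7 drives mouse Glrx, and AAV-Hep-control mice (AAV control in the labels) the same dose of a vector with an empty cassette. Livers were taken 12 weeks after the injection, and whole-liver RNA of 5 or 6 mice in each group was combined to make 3 AAV-Hep-Glrx pools and 3 AAV-Hep-control pools, which are the replicates. Because each array is a pool, the p-values measure the spread between pools and not between single mice. The sources used here do not give the number of mice in each pool.

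The sinusoidal endothelium has open fenestrae and no organized basement membrane. Its cells take up waste macromolecules from blood through scavenger receptors, respond to vascular endothelial growth factor, and release Wnt and bone morphogenetic protein ligands that act on neighboring hepatocytes. In chronic liver injury these cells can lose fenestrae and take on features of ordinary capillaries, a change called capillarization, in which markers such as Lyve1 and Stab2 decrease and Cd34 appears. The TBG (Serpina7) promoter is not meant to be active in endothelial cells, so the comparison asks how these genes stood in the liver when Glrx was supplied to hepatocytes. In whole liver, fewer cells of a type and less RNA per cell cannot be told apart.

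Expression is given as the authors' log2 values after Robust Multiarray Average normalization, and the medians of the 6 arrays lay between 3.893 and 3.949. All 10 genes were above the median of the array on every array. For 9 of them the mean ranked between the 87.4th and the 97.1st percentile of all genes, while Wnt2 was at the 52.4th percentile, close to the middle. Ranks across probes only describe where the signal lay and do not measure the amount of each RNA. The vector gene Glrx was at 6.60, 7.77 and 7.24 in AAV-Hep-Glrx pools 1, 2 and 3 and at 6.11, 6.03 and 5.66 in AAV-Hep-control pools 1, 2 and 3, so the labels and the levels of Glrx went together.

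In Lyve1 and Gpr182 all AAV-Hep-Glrx pools lay below all AAV-Hep-control pools, by 1.32-fold and 1.18-fold in the mean. None of the 10 genes passed the test over all genes (limma, adjusted p under 0.1), and the smallest adjusted p among them was 0.847. In all, 7 genes had a lower and 3 a higher mean in AAV-Hep-Glrx, where 50.5% of all genes had a lower and 49.5% a higher mean, and the median log2 fold change of the 10 was -0.04, against -0.0012 over all genes. By this test 1 of 27381 genes was called, Zbtb16, which was lower in AAV-Hep-Glrx, or 0.00365% of all genes in either direction. The vector gene Glrx itself was not called, at a log2 fold change of 1.27 without overlap (limma, unadjusted p = 0.00177, adjusted p = 0.847). A gene that did not pass is therefore not shown to be unchanged. By unadjusted p, 2 of the 10 genes were lower at a threshold of 0.05, against 3.01% of all genes, and 0 of the 10 were higher, against 2.76% (5.77% in either direction). The groups did not overlap in 2 of the 10 genes, both lower, where 10.9% of all genes did not overlap, 5.38% with lower and 5.51% with higher AAV-Hep-Glrx pools. With so few genes in the list, these shares rest on Lyve1 and Gpr182 alone.

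**Figure D1:**
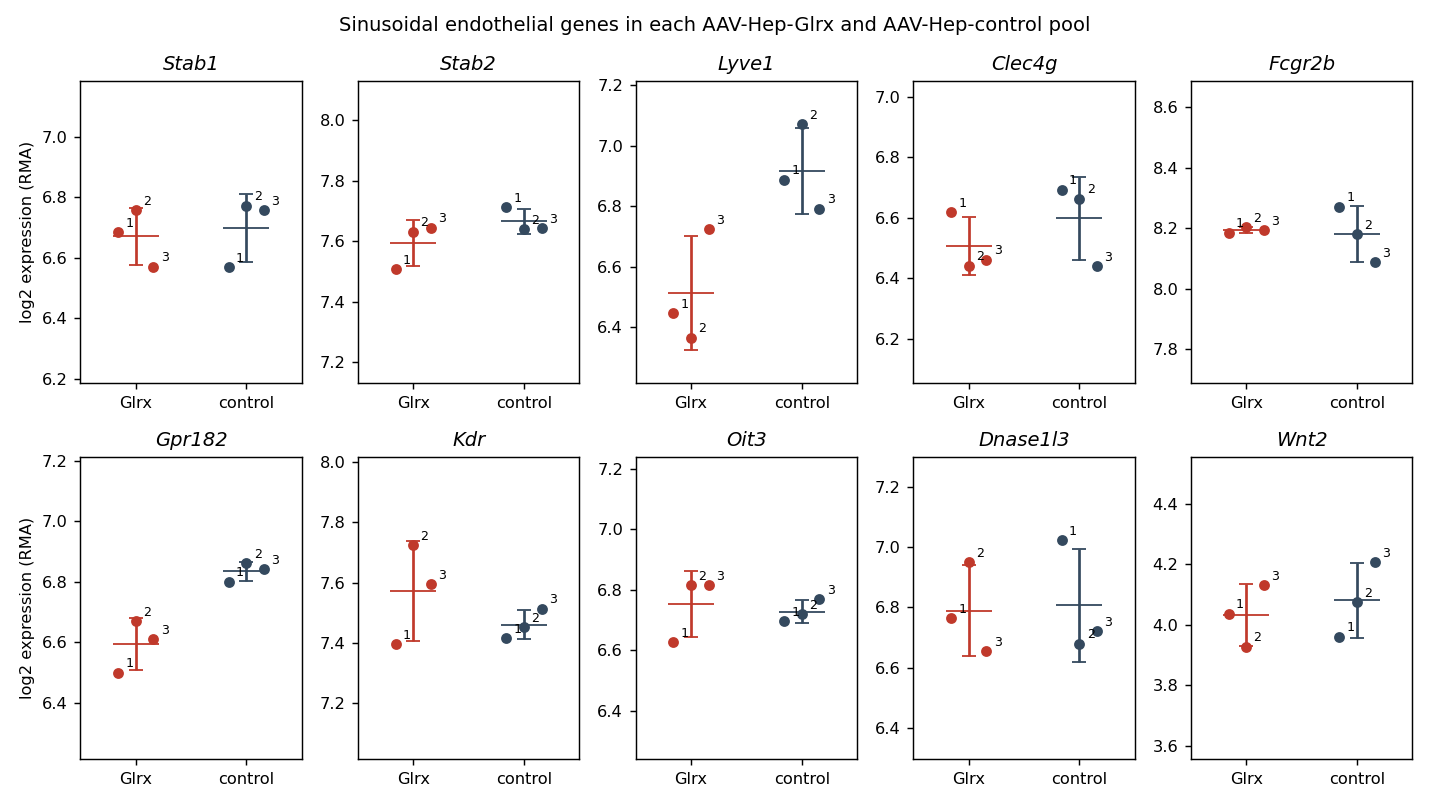
Log2 expression of the 10 sinusoidal endothelial genes in each pool (points, numbered by pool), with the mean and SD of the 3 AAV-Hep-Glrx pools on the left of each panel and of the 3 AAV-Hep-control pools on the right. Every panel spans 1 log2 unit on its own vertical range. In Lyve1 and Gpr182 the groups are separate, and in the other 8 genes they overlap.

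Among the scavenger and endocytic receptors, Lyve1 had the largest difference of the 10 genes. Lyve1 encodes a receptor for the matrix polysaccharide hyaluronan and is also expressed by lymphatic endothelium and some tissue macrophages. Its log2 expression was 6.45, 6.37 and 6.72 in AAV-Hep-Glrx pools 1, 2 and 3, against 6.89, 7.07 and 6.79 in AAV-Hep-control pools 1, 2 and 3. The groups did not overlap, but AAV-Hep-Glrx 3 lay only 0.07 below AAV-Hep-control 3, while the pools spanned 0.36 within AAV-Hep-Glrx and 0.28 within AAV-Hep-control. The means were 6.51 ± 0.19 in AAV-Hep-Glrx and 6.92 ± 0.14 in AAV-Hep-control (SD, n = 3 pools each), and the log2 fold change was -0.40 (standard error 0.12, 95% confidence interval -0.69 to -0.12; limma, unadjusted p = 0.0121, adjusted p = 0.847). The exact two-sided permutation p was 0.1, which is the smallest that 3 pools against 3 allow.

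The stabilins, Stab1 and Stab2, are large scavenger receptors that clear modified lipoproteins and other waste from blood. Stab2 was at 7.51, 7.63 and 7.64 in AAV-Hep-Glrx pools 1, 2 and 3 and at 7.71, 7.64 and 7.64 in AAV-Hep-control pools 1, 2 and 3. AAV-Hep-Glrx 1 was the lowest and AAV-Hep-control 1 the highest, and the other 4 pools lay together. The log2 fold change was -0.07 (standard error 0.09, 95% confidence interval -0.27 to 0.13). Stab1 was at 6.68, 6.76 and 6.57 in AAV-Hep-Glrx pools 1, 2 and 3 and at 6.57, 6.77 and 6.76 in AAV-Hep-control pools 1, 2 and 3, so that the groups covered nearly the same range. Its log2 fold change was -0.03 (95% confidence interval -0.26 to 0.20).

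Clec4g, the C-type lectin LSECtin, was at 6.62, 6.44 and 6.46 in AAV-Hep-Glrx pools 1, 2 and 3 and at 6.69, 6.66 and 6.44 in AAV-Hep-control pools 1, 2 and 3. The groups overlapped, since AAV-Hep-control 3 was as low as the lowest AAV-Hep-Glrx pool. Fcgr2b encodes the inhibitory Fc receptor for IgG, which sinusoidal endothelium uses to remove small immune complexes and which B cells and macrophages also carry. It was at 8.19, 8.20 and 8.19 in AAV-Hep-Glrx pools 1, 2 and 3, inside the span of 8.27, 8.18 and 8.09 in AAV-Hep-control pools 1, 2 and 3. The log2 fold changes were -0.09 for Clec4g (95% confidence interval -0.33 to 0.15) and 0.01 for Fcgr2b (95% confidence interval -0.19 to 0.22). Fcgr2b resembles other Fc receptor genes in sequence, and the sources used here do not say how its probes separate them.

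The 2 signaling receptors differed in the sign of their means. Gpr182, an atypical chemokine receptor of endothelial cells, was at 6.50, 6.67 and 6.61 in AAV-Hep-Glrx pools 1, 2 and 3, against 6.80, 6.86 and 6.84 in AAV-Hep-control pools 1, 2 and 3. The groups were separate by 0.13, more than the 0.06 that the AAV-Hep-control pools spanned and less than the 0.17 of the AAV-Hep-Glrx pools. The means were 6.59 ± 0.09 in AAV-Hep-Glrx and 6.83 ± 0.03 in AAV-Hep-control (SD, n = 3 pools each), and the log2 fold change was -0.24 (standard error 0.09, 95% confidence interval -0.44 to -0.04; limma, unadjusted p = 0.0242, adjusted p = 0.847). The exact two-sided permutation p was again 0.1.

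Kdr encodes the vascular endothelial growth factor receptor VEGFR-2. It was at 7.40, 7.72 and 7.59 in AAV-Hep-Glrx pools 1, 2 and 3 and at 7.42, 7.45 and 7.51 in AAV-Hep-control pools 1, 2 and 3. The AAV-Hep-Glrx pools held both the lowest and the highest value, and their SD was 0.16, against 0.05 in AAV-Hep-control. The log2 fold change was 0.11 (95% confidence interval -0.13 to 0.36), and it was 0.20 without AAV-Hep-Glrx 1 and 0.035 without AAV-Hep-Glrx 2.

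In the 3 genes of secreted proteins the groups overlapped. Oit3, a zona pellucida domain protein found mainly in liver, was at 6.63, 6.81 and 6.82 in AAV-Hep-Glrx pools 1, 2 and 3 and at 6.70, 6.72 and 6.77 in AAV-Hep-control pools 1, 2 and 3. Dnase1l3, a nuclease that digests extracellular chromatin, was at 6.76, 6.95 and 6.65 in AAV-Hep-Glrx pools 1, 2 and 3 and at 7.02, 6.68 and 6.72 in AAV-Hep-control pools 1, 2 and 3. Their log2 fold changes were 0.02 for Oit3 (95% confidence interval -0.19 to 0.23) and -0.02 for Dnase1l3 (95% confidence interval -0.31 to 0.27).

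Wnt2, a ligand that endothelial cells of the pericentral sinusoid supply to hepatocytes, was at 4.04, 3.93 and 4.13 in AAV-Hep-Glrx pools 1, 2 and 3 and at 3.96, 4.08 and 4.21 in AAV-Hep-control pools 1, 2 and 3. The groups overlapped and the log2 fold change was -0.05 (95% confidence interval -0.29 to 0.19). At this level, near the median of all genes, background makes up more of the signal and a difference may be understated. Over the 8 genes whose groups overlapped, limma's unadjusted p was 0.322 to 0.888, and the intervals ran at most from 1.26-fold lower to 1.28-fold higher.

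**Figure D2:**
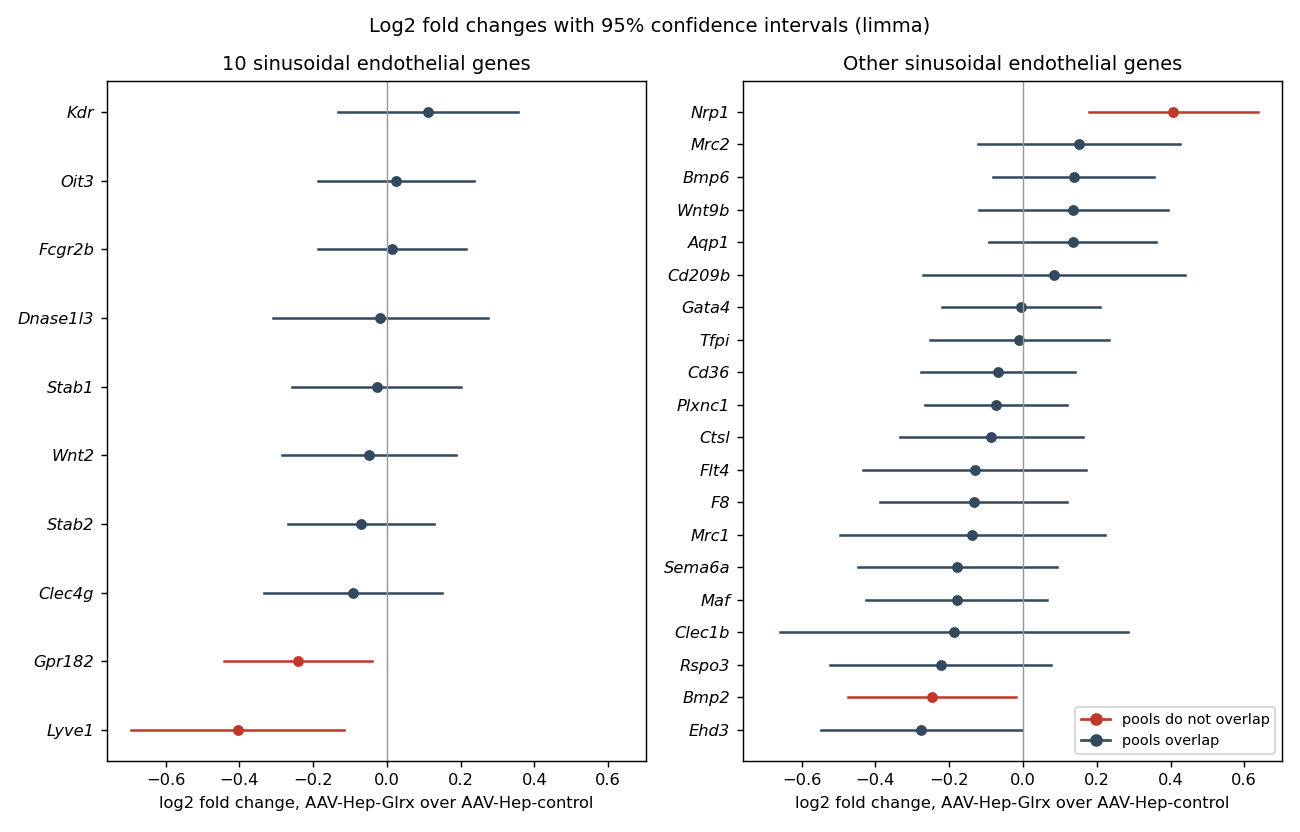
Log2 fold changes of AAV-Hep-Glrx over AAV-Hep-control (points) with 95% confidence intervals from limma (lines), for the 10 sinusoidal endothelial genes on the left and 20 other genes of sinusoidal endothelium on the right. Red marks genes whose 3 pools per group do not overlap, which are Gpr182 and Lyve1 on the left and Nrp1 and Bmp2 on the right.

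Pool by pool, the 10 genes did not deviate together. In AAV-Hep-Glrx 1 only 1 gene (Clec4g) was above its own mean over the 6 pools, and 4 genes (Stab2, Gpr182, Kdr and Oit3) had their lowest value there. In each of the other 5 pools 6 of the 10 genes were above their mean. The median deviation of the 10 genes was -0.07, 0.01 and 0.01 in AAV-Hep-Glrx pools 1, 2 and 3 and 0.08, 0.01 and 0.02 in AAV-Hep-control pools 1, 2 and 3. AAV-Hep-Glrx 1 was thus the lowest pool and AAV-Hep-control 1 the highest, and the other 4 lay close to each other. Lyve1 had its lowest value in AAV-Hep-Glrx 2 and its highest in AAV-Hep-control 2, so it did not follow that order.

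**Figure D3:**
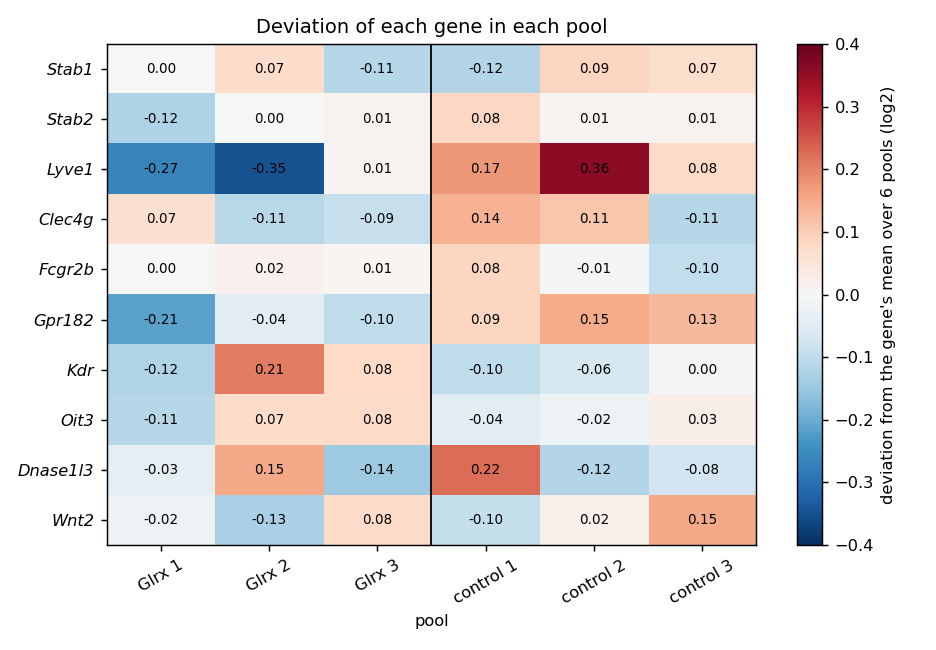
Deviation of each of the 10 genes (rows) from its own mean over the 6 pools, on the log2 scale, in AAV-Hep-Glrx pools 1 to 3 (left of the line) and AAV-Hep-control pools 1 to 3 (right of the line). Blue is below and red above the mean, and only Lyve1 and Gpr182 have a clear change of color at the line.

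Of the 45 pairs among the 10 genes, 24 had a positive Pearson's r over the 6 arrays, with a median of 0.06 and a range from -0.82 to 0.88. The highest was that of Kdr and Oit3 (r = 0.88 over 6 arrays, and 0.93 after the group means were removed), both low in AAV-Hep-Glrx 1. After the group means were removed, the highest pair was Gpr182 and Kdr (r = 0.96, against -0.11 over the 6 arrays). Gpr182 and Oit3 then had r = 0.89, and Gpr182 too was lowest in AAV-Hep-Glrx 1. Lyve1 and Gpr182 had r = 0.77 over the 6 arrays but 0.06 after the group means were removed, so their likeness lay in the difference between the groups. Dnase1l3 and Wnt2 ran opposite to each other (r = -0.82). These are descriptions of 6 arrays that were normalized together. The 5 genes outside the lists whose values followed the median deviation of the 10 most closely were Cyria, Atp1b3, Zfp24, Scamp2 and Il2rb. Their r was 0.987 to 0.995 over 6 arrays, out of 12141 named genes above the median level. All 5 had their highest value in AAV-Hep-control 1 and their lowest in AAV-Hep-Glrx 1. The median deviation itself has that order, so it follows from how the 5 were picked. A highest r picked from so many genes over 6 arrays says little about a link.

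Further genes of sinusoidal endothelium went both ways. Of 20 measured, 14 had a lower and 6 a higher mean in AAV-Hep-Glrx (median log2 fold change -0.08, and -0.011 without AAV-Hep-Glrx 1), and 0 passed over all genes. By unadjusted p at a threshold of 0.05, 2 were lower and 1 was higher, against 3.01% and 2.76% of all genes. Nrp1, a coreceptor for vascular endothelial growth factor and semaphorins that other liver cells also express, was at 8.07, 7.92 and 7.80 in AAV-Hep-Glrx pools 1, 2 and 3, against 7.45, 7.57 and 7.54 in AAV-Hep-control pools 1, 2 and 3. All AAV-Hep-Glrx pools were higher, and the log2 fold change was 0.41 (standard error 0.10; limma, unadjusted p = 0.00356, adjusted p = 0.847). Bmp2, an endothelial signal for hepcidin in hepatocytes, had a log2 fold change of -0.25 without overlap, and Ehd3, of endocytic recycling, one of -0.28 with overlap, since AAV-Hep-Glrx 2 (8.46) was above AAV-Hep-control 2 (8.45).

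Among 9 ligands, receptors and coreceptors of the vascular endothelial growth factor family, 3 were higher in AAV-Hep-Glrx without overlap, where 5.51% of all genes were. The receptors in this list are also counted in other endothelial lists. Besides Nrp1, already counted above, these were Nrp2 (log2 fold change 0.25) and the ligand Vegfa (0.22), named after their values were seen, and neither reached an unadjusted p of 0.05. The median of the 9 was 0.03 and 0 passed over all genes. Of these 9 genes, 5 had a higher and 4 a lower mean.

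Genes shared by all endothelium had no common direction, with log2 fold changes from -0.27 to 0.19. Of 22 measured, 12 had a lower and 10 a higher mean (median log2 fold change -0.01). At an unadjusted p under 0.05 there were 0, against 5.77% of all genes. Groups that did not overlap were found in 0, against 10.9% of all genes. With 3 pools per group this does not show that the genes were unchanged. The smallest p was that of Sox18, an endothelial transcription factor, at -0.27 (limma, unadjusted p = 0.0699, adjusted p = 0.858). The summed linear signal of the 22 genes was 1369 to 1564 in AAV-Hep-Glrx pools and 1468 to 1527 in AAV-Hep-control pools. Pecam1, the adhesion molecule CD31, had a log2 fold change of 0.01 and Cdh5, VE-cadherin, one of -0.09; both were named after their values were seen.

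Of 21 genes of large-vessel, capillary or activated endothelium, 14 had a higher and 7 a lower mean (median log2 fold change 0.05), and 0 passed over all genes. Only Ly6c1 was at an unadjusted p under 0.05, lower at -0.44, but it was below the median on every array. The groups did not overlap in 4 of the 21 genes, 2 higher (Cd34 at 0.18 and Icam1 at 0.21) and 2 lower (Ly6c1 and Cd9), where 10.9% of all genes did not overlap. Cd34, which marks capillary-like endothelium, was at 4.52, 4.42 and 4.37 in AAV-Hep-Glrx pools 1, 2 and 3, against 4.21, 4.26 and 4.29 in AAV-Hep-control pools 1, 2 and 3 (limma, unadjusted p = 0.0693, adjusted p = 0.858). The SD was 0.08 in AAV-Hep-Glrx and 0.04 in AAV-Hep-control. The mean of Cd34 ranked at the 57.2nd percentile, near the middle like Wnt2, where background makes up more of the signal. Of the same list, Col4a1 was at 0.29, Apln at 0.26, Fabp4 at 0.24, Vwf at 0.12 and Ly6a at 0.01. Plvap was at -0.05 and Gja5 at -0.14. Each of these had overlapping groups, and Apln was below the median on every array. Cd34, Icam1, Cd9, Col4a1, Apln, Fabp4, Vwf, Ly6a, Plvap and Gja5 were named after their values were seen.

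Among 15 Wnt targets and pericentral genes of hepatocytes, on which Wnt2 acts, 12 had a higher and 3 a lower mean (median log2 fold change 0.15). The median deviation of the list was 0.16, -0.02 and 0.03 in AAV-Hep-Glrx pools 1, 2 and 3 and -0.22, -0.05 and 0.03 in AAV-Hep-control pools 1, 2 and 3, so AAV-Hep-control 1 and AAV-Hep-Glrx 1 stood apart, and the median log2 fold change was 0.033 without AAV-Hep-control 1 and 0.074 without AAV-Hep-Glrx 1. Lgr5, a receptor for R-spondins, was at 4.71, 4.56 and 4.78 in AAV-Hep-Glrx pools 1, 2 and 3, against 3.84, 4.05 and 4.31 in AAV-Hep-control pools 1, 2 and 3, with the groups apart at a log2 fold change of 0.62 (SE 0.13; limma, unadjusted p = 0.00171, adjusted p = 0.847). Tbx3, a transcription factor induced by Wnt signaling, was at 0.46 with overlapping groups. Of the endothelial ligand genes, Wnt2 had a log2 fold change of -0.05, Wnt9b one of 0.14 and Rspo3, the R-spondin of pericentral endothelium, one of -0.22, each with overlapping groups. Wnt9b and Rspo3 were named after their values were seen.

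Ligands of the stabilins and enzymes that make or degrade hyaluronan, with Gdf15, numbered 9. Of these, 6 had a higher and 3 a lower mean (median log2 fold change 0.08). Gdf15, a cytokine of stressed cells, was at 4.49, 4.64 and 4.24 in AAV-Hep-Glrx pools 1, 2 and 3, against 5.01, 5.12 and 4.64 in AAV-Hep-control pools 1, 2 and 3, without overlap. Its log2 fold change was -0.47 (limma, unadjusted p = 0.0163, adjusted p = 0.847), and AAV-Hep-Glrx 2 and AAV-Hep-control 3 lay next to each other at 4.64. The hyaluronan synthases Has1, Has2 and Has3 were below the median on every array.

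Some of the 10 genes are also expressed by other cells, so the markers of those cells are given beside them. Of 6 measured markers of lymphatic endothelium, which carries Lyve1, 3 had a higher and 3 a lower mean, and only Prox1 was at an unadjusted p under 0.05, at 0.29. Prox1 is also a hepatocyte transcription factor. The lymphatic marker Mmrn1 was below the median on every array. The summed signal of the 6 was 788 to 815 in AAV-Hep-Glrx pools and 748 to 764 in AAV-Hep-control pools. Without Prox1 the sum of the other 5 was 407 to 453 in AAV-Hep-Glrx pools and 435 to 451 in AAV-Hep-control pools, which overlap. The highest of these 5 were Reln (mean log2 level 7.40) and Flt4 (7.28), both named after their values were seen. Reln is also in the stellate cell list and Flt4 among the other sinusoidal endothelial genes, so the sum is not particular to lymphatic endothelium. The part of lymphatic endothelium in the value of Lyve1 was not tested. Of 12 Kupffer cell markers, 10 had a lower and 2 a higher mean in AAV-Hep-Glrx (median log2 fold change -0.09). At an unadjusted p under 0.05 there were 0, against 5.77% of all genes. The smallest p was that of C1qc, at -0.19 (limma, adjusted p = 0.919).

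The median deviation of the Kupffer cell markers was -0.22, 0.08 and 0.03 in AAV-Hep-Glrx pools 1, 2 and 3 and 0.30, -0.10 and -0.06 in AAV-Hep-control pools 1, 2 and 3. AAV-Hep-Glrx 1 was thus the lowest and AAV-Hep-control 1 the highest, as for the median of the 10 endothelial genes, and the median log2 fold change of these markers was 0.019 without AAV-Hep-Glrx 1 and 0.030 without AAV-Hep-control 1. Their summed signal was 1508 to 1879 in AAV-Hep-Glrx pools and 1658 to 2260 in AAV-Hep-control pools, and Timd4 and Cd163 were below the median on every array. Their part in the values of the 10 genes was not tested. Lyve1 had a log2 fold change of -0.37 without AAV-Hep-Glrx 1 and of -0.42 without AAV-Hep-control 1.

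B cell markers, of interest because B cells carry Fcgr2b, had a lower mean in 8 of 8 genes (median log2 fold change -0.27), with Cd79a, a chain of the B cell receptor, at -0.61 and without overlap (-0.36 without AAV-Hep-control 2). By pool the median deviation of the 8 genes was -0.29, -0.21 and 0.10 in AAV-Hep-Glrx pools 1, 2 and 3 and -0.09, 0.30 and 0.20 in AAV-Hep-control pools 1, 2 and 3, so the groups overlapped. Their summed signal, most of it Ighm in every pool but AAV-Hep-Glrx 2, was 186 to 1192 in AAV-Hep-Glrx pools and 349 to 1304 in AAV-Hep-control pools. Fcgr2b differed by 0.01. Their part in the value of Fcgr2b was not tested. Of 10 hepatocyte markers 5 were lower and 5 higher in the mean (median -0.02), with Tat, an enzyme of tyrosine breakdown, at -0.47. Of 10 stellate cell markers 7 were higher and 3 lower (median 0.07). The groups did not overlap in 4 of these 10, 3 higher and 1 lower, where 10.9% of all genes did not overlap. Tcf21, a transcription factor of these cells, was at 0.48 (limma, unadjusted p = 0.000484, adjusted p = 0.847). Pdgfrb at 0.22 and Lhx2 at 0.14 were the other higher markers without overlap. Lrat was at -0.23 with overlap and Des at -0.19 without. Pdgfrb, Lhx2, Lrat and Des were named after their values were seen. Of 6 cholangiocyte markers 2 were higher and 4 lower (median -0.01), and the smallest p was that of Sox9, at -0.25.

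**Figure D4:**
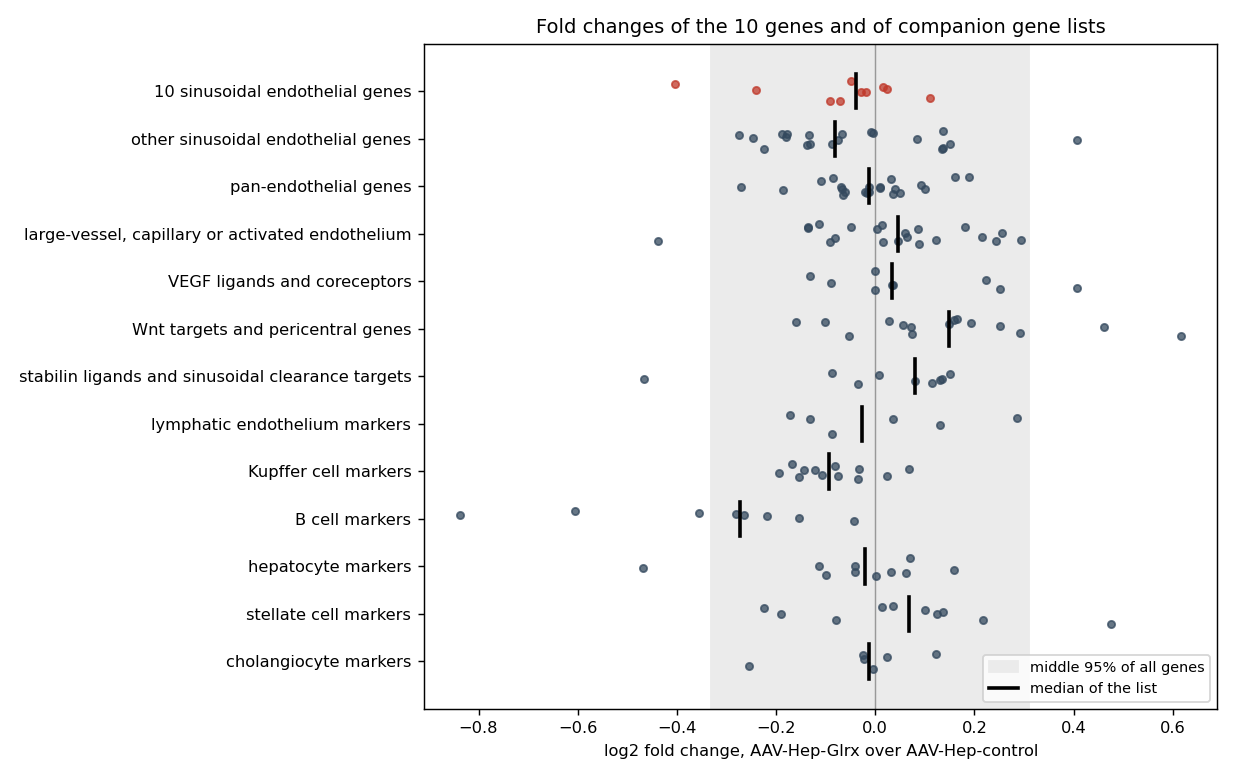
Log2 fold changes of AAV-Hep-Glrx over AAV-Hep-control for each gene (points, spread vertically for visibility) of the 10 sinusoidal endothelial genes (red) and of 12 companion lists (dark), with the median of each list as a black bar. The gray band holds the middle 95% of all 27381 genes, from -0.33 to 0.31, and of the 10 genes only Lyve1 lies outside it.

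Over all 142 measured companion genes, 0 passed limma's test over all genes, 11 (7.75%) had an unadjusted p under 0.05, 5 of them higher and 6 lower in AAV-Hep-Glrx, and 18 (12.7%) had groups that did not overlap. These shares were near the 5.77% and 10.9% of all genes. Among the 10 sinusoidal endothelial genes, the count of 2 at an unadjusted p under 0.05 dropped to 1 when AAV-Hep-Glrx 1, AAV-Hep-control 2 or AAV-Hep-control 3 was left out, because Gpr182 then had an unadjusted p of 0.086, 0.0626 and 0.0573 (limma). Gpr182 had log2 fold changes of -0.19, -0.23 and -0.24 in these fits. Lyve1 stayed at an unadjusted p under 0.05 in all 13 refits, between 0.00359 and 0.0451 (limma), with an adjusted p between 0.673 and 0.939.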

How the data were processed

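RNA of whole liver from 6 pools, 3 per group, had been hybridized to Affymetrix Mouse Gene ST arrays. The authors ran Robust Multiarray Average normalization and deposited 1 log2 value per Entrez gene. The tools that the submitters list in their processing notes are R 3.6.0 and affy 1.61.0. The method makes probe intensities equally distributed on all arrays, which would hide a shift of most genes in 1 direction. The sources used here do not give the genome build of the probe definitions, so coordinates were left out.

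Groups and replicate numbers came from the labels. Genes were matched by Entrez number to the platform annotation and to RefSeq (assembly GRCm38.p6) for symbols, and 27358 of 27381 were named. Of the 143 symbols in the 12 companion lists, 142 were measured and Ccl21a was not. The deposited log2 values of all genes were modeled on the group alone in limma 3.58.1 (lmFit, then eBayes; R 4.3.3), without a filter, with Benjamini-Hochberg adjustment over 27381 genes. Genes were called at an adjusted p under 0.1. Confidence intervals of 95% used the moderated standard error with 7.79 degrees of freedom. The number of arrays limits the precision. Summed signals are sums of antilogged log2 values, in arbitrary units.

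The genes and lists were chosen with earlier results of these data known. The named genes are the 10 sinusoidal endothelial genes, genes of each companion list at an unadjusted p under 0.05 (at most 4, or the gene with the smallest p where there was none), Glrx, Zbtb16 and the 5 genes most like the median of the 10. Other genes are marked as named after their values were seen. The alternatives were an intensity trend, a robust prior, another quantile normalization, median centring, array weights, only genes above the median level, each array left out, the replicate number as a block, and a threshold of 0.05. The fit was tested on simulated data with shifts larger than the differences of the 10 genes, so its power at such differences was not examined.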

Additional observations from a re-analysis of the deposited data

How the results depend on the processing

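None of the 10 sinusoidal endothelial genes and none of the 142 companion genes passed at the adjusted threshold in limma under any of the 14 alternatives. The median log2 fold change of the 10 genes was -0.04 in the main analysis and -0.07 to -0.03 with an array left out, and -0.02 with arrays centred on the median. Of the 10 genes, 2 had an unadjusted p under 0.05, and 1 to 2 with an array left out. Over all genes, 1 gene was called (Zbtb16), 0 after another quantile normalization, 0 with the replicate number as a block, 0 at an adjusted p under 0.05, and 0 to 2 with an array left out. The replicate numbers gave no sign of pairing (correlations of same-numbered deviations of -0.04, -0.17 and 0.02), and with the replicate block Lyve1 and Gpr182 had unadjusted p of 0.0305 and 0.0437 (limma). Genes whose difference was near 0 changed sign when an array was left out, with log2 fold changes of -0.094 to 0.022 for Stab1, -0.032 to 0.061 for Fcgr2b, -0.0069 to 0.087 for Oit3, -0.10 to 0.089 for Dnase1l3 and -0.11 to 0.014 for Wnt2. The other 5 of the 10 genes kept their direction in all 13 refits, and so did the 14 named companion genes in every refit that held them (12 for Ly6c1 and Cd79a, which lie outside the genes above the median level). C1qc came close to 0 (-0.0019 without AAV-Hep-control 1). With an array left out, Lyve1 was at -0.51 to -0.33, Gpr182 at -0.28 to -0.19, Kdr at 0.035 to 0.20, Stab2 at -0.10 to -0.03 and Clec4g at -0.17 to -0.04. The sources used here give no hybridization dates, so batches of arrays were not tested. The 3 pools per group leave intervals that still hold modest differences for the 8 genes whose groups overlapped.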
